A study of Mus musculus with 12 samples.

Results

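The genes described here are 9 Kruppel-like factors of the mouse, Klf3, Klf4, Klf6, Klf7, Klf9, Klf10, Klf11, Klf12 and Klf13, leaving out Klf1 and Klf2. All array probes that carry one of these gene names were taken, which gave 12 of the 39429 probes that were not controls: 3 for Klf13, 2 for Klf3 and 1 for each other gene. The 9 genes, of 31093 gene names on the array, were chosen with earlier results of these arrays known; they were selected on their processed signal in the 4 groups. Their levels and differences are therefore given as a description, with no p-value of their own.

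The cells were sorted from male DBA2/J mice as LSK, a gate on blood-forming cells without lineage markers and with Sca-1 and Kit, in which stem cells and early progenitors are found. There were 4 groups of 3 arrays, 12 in all. G-CSF blood cells were taken from peripheral blood after 5 days and 9 injections of G-CSF, a growth factor that drives granulocyte production. AMD3100 blood cells came from peripheral blood 1 hr after AMD3100, an antagonist of the chemokine receptor CXCR4. CWHM-823+tGro-b blood cells came from peripheral blood after CWHM-823, an inhibitor of the integrin VLA-4, combined with tGro-b, which activates the chemokine receptor CXCR2; no time was given for this pair. PBS marrow cells came from the bone marrow of mice given PBS. The study compared cells that had been mobilized into blood with cells resident in marrow. Blood LSK cells without a mobilizer were not analysed here, so treatment and tissue cannot be told apart in any comparison with marrow. The mobilizers also differed in time. The ages of the mice, and whether each array came from 1 mouse or from several, were not given in the sources used here.

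Kruppel-like factors are transcription factors with a DNA-binding domain of zinc fingers at their C-terminal end, through which they bind GC-rich boxes and CACCC boxes in promoters. Their N-terminal parts differ and set the partners: Klf4, Klf6 and Klf7 recruit acetyltransferases, Klf3 and Klf12 bind the corepressor CtBP, and Klf9, Klf10, Klf11 and Klf13 bind the corepressor Sin3A. In blood cells Klf4 is known for monocyte differentiation and for restraint of the cell cycle, and several members are induced quickly by serum, growth factors, hormones or stress.

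Levels are the log2 of the processed signal minus the 75th percentile of the same array, so that 0 is the brightness below which 75% of an array's probes lay. Signal at that percentile ran from 1146 to 2724 over the 12 arrays, and 70.8 to 83.4% of probes were well above background by the scanner software's own flag. All 10 LSK marker genes measured, Kit and Ly6a (Sca-1) among them, were above background on all 12 arrays. Their median level was 1.30 to 1.89 on G-CSF blood arrays and 1.51 to 1.67 on AMD3100 blood arrays, both below the 2.04 to 2.36 of PBS marrow arrays, and 2.05 to 2.33 on CWHM-823+tGro-b blood arrays, which overlapped marrow. Their summed signal, divided by the signal at the 75th percentile, overlapped marrow (40.6 to 58.6) in every blood group. It was 45.3 to 57 in G-CSF blood, 33.3 to 43.7 in AMD3100 blood and 41.1 to 56.6 in CWHM-823+tGro-b blood. Each slide held 1 array of every group, so values within a slide are given where a result turns on them. PBS marrow array 3 was unlike the rest in genes of neutrophils. Over 7 such genes its median level was 2.01, while marrow arrays 1 and 2 had -2.52 and -2.53, and the median ran from -3.37 to -1.48 on the blood arrays. Results against marrow are given with and without that array where they rest on it. Since RNA of sorted cells was measured in bulk, a change in the share of cells that express a gene and a change in RNA per cell cannot be told apart.

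Klf4 and Klf6 were the members that lay far above marrow with all 3 mobilizers, and both belong to the activating branch of the family. Klf4 is the zinc-finger factor also used for reprogramming to pluripotency. Klf6 is a broadly expressed factor first described as an early response gene. The 250 bases before their annotated starts are printed because the results turn on these genes; they are credited to RefSeq (GRCm38.p6) and are read 5′ to 3′ on the strand of the gene. Capitals mark matches, on either strand, to a GC box (GGGCGG), an EGR site (GCGNGGGCG), an AP-1 site (TGANTCA) or a STAT site (TTCNNNGAA). The Klf4 window is chr4:55532476-55532725 on the minus strand and the Klf6 window is chr13:5861239-5861488 on the plus strand.
Klf4: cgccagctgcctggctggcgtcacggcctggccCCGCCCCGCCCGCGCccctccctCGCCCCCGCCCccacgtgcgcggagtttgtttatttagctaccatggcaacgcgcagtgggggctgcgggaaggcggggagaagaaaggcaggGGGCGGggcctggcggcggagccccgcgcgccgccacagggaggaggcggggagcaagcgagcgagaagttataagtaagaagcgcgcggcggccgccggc
Klf6: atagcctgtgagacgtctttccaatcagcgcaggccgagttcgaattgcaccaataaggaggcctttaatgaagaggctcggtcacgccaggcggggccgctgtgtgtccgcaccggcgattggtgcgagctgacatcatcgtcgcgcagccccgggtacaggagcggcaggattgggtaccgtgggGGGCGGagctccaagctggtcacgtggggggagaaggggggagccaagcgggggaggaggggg
The Klf4 window held 4 GC boxes and 2 EGR sites, of which some letters overlap, and the Klf6 window held 1 GC box. A GC box was present in 32.7% and an EGR site in 4.70% of the 32851 promoter windows of the same length in the RefSeq table, so the GC box is common. The windows were also rich in G and C, at 74% for Klf4 and 64.8% for Klf6, against a median of 52.4% over all windows. Neither window held a cyclic AMP response element (TGACGTCA, 1.55% of all windows) or a CArG box (1.47%), which says only that these letters are not in these 250 bases.

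Klf4 had levels of -0.34, -0.87 and 0.09 on the G-CSF blood arrays, -0.41, -0.23 and -0.30 on the AMD3100 blood arrays, 1.06, 0.27 and 1.38 on the CWHM-823+tGro-b blood arrays, and -2.68, -2.88 and -2.17 on the PBS marrow arrays. All 9 blood arrays lay above all 3 marrow arrays, and the CWHM-823+tGro-b arrays lay above every other array. Against marrow, Klf4 was higher by 2.21 ± 0.34 in G-CSF blood (4.61-fold; ± is the standard error of a log2 difference, n = 3 arrays per group), by 2.26 ± 0.34 in AMD3100 blood (4.80-fold) and by 3.48 ± 0.34 in CWHM-823+tGro-b blood (11.2-fold). Within slides 1, 2 and 3 the differences from marrow were 2.34, 2.01 and 2.26 for G-CSF, 2.27, 2.65 and 1.87 for AMD3100, and 3.73, 3.15 and 3.55 for CWHM-823+tGro-b. The sign was the same on every slide. Without marrow array 3 the differences were 2.41, 2.47 and 3.68 for G-CSF, AMD3100 and CWHM-823+tGro-b. In marrow the signal before scaling was only 307 to 365, and the sizes depend on how background is handled. With normexp background correction they were 1.66, 1.63 and 2.78 in the same order, and each still passed. The probe lies at chr4:55540167-55540226 of the mm9 assembly, on the minus strand.

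Klf4 is also expressed by monocytes. All 8 listed monocyte genes were measured; their summed signal, divided by the signal at the 75th percentile, was 24.5 to 29.1 on G-CSF blood arrays, 30.9 to 34.7 on AMD3100 blood arrays, 22.0 to 35.8 on CWHM-823+tGro-b blood arrays and 23.9 to 32.1 on PBS marrow arrays. Of these genes 1 passed as higher in G-CSF blood against marrow. Their median difference from marrow was -0.16 in G-CSF blood, 0.54 in AMD3100 blood and -0.08 in CWHM-823+tGro-b blood. The sums overlapped between each blood group and marrow, but the median level of these genes was -0.48 to -0.36 on AMD3100 blood arrays, above the -1.37 to -0.81 of marrow arrays. Lymphoid markers moved with some of the same contrasts. The summed signal of 5 B cell genes, on the same scale, was 6.04 to 6.94 in AMD3100 blood and 5.51 to 7.47 in CWHM-823+tGro-b blood, against 3.88 to 4.43 in marrow, and 4.17 to 4.59 in G-CSF blood. That of 5 T and NK cell genes was 8.73 to 12.4 in AMD3100 blood, against 5.15 to 7.82 in marrow. The part of any of these markers in the differences of Klf4 and Klf6 from marrow was not tested.

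Klf6 had levels of 3.63, 3.39 and 3.51 on the G-CSF blood arrays, 3.50, 2.85 and 3.02 on the AMD3100 blood arrays, 3.86, 3.50 and 3.87 on the CWHM-823+tGro-b blood arrays, and 1.18, 0.94 and 0.41 on the PBS marrow arrays. The blood groups overlapped one another in the order CWHM-823+tGro-b, G-CSF, AMD3100, and all lay clear of marrow. In signal before scaling, the G-CSF blood arrays read 27111, 23920 and 30998, against 4453, 4735 and 2195 on the marrow arrays. Klf6 was higher than in marrow by 2.67 ± 0.27 in G-CSF blood (6.35-fold), by 2.28 ± 0.27 in AMD3100 blood (4.87-fold) and by 2.90 ± 0.27 in CWHM-823+tGro-b blood (7.48-fold). On slide 3 the difference was the largest of the 3 slides for each mobilizer, at 3.09, 2.61 and 3.46 for G-CSF, AMD3100 and CWHM-823+tGro-b, where the marrow array was the lowest. Without that marrow array the differences were 2.45, 2.07 and 2.69. The Klf6 probe lies at chr13:5869371-5869430 of mm9, on the plus strand.

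Klf7, also of that branch and known mainly from nerve and fat cells, had its highest levels on the G-CSF arrays. Its levels were 1.79, 1.87 and 2.25 in G-CSF blood, 1.44, 0.70 and 1.40 in AMD3100 blood, 1.27, 0.41 and 1.25 in CWHM-823+tGro-b blood, and 1.19, 0.81 and 1.18 in PBS marrow. Each G-CSF array lay above all 9 others, and the other 3 groups overlapped. The difference from marrow was 0.91 ± 0.31 in G-CSF blood, 0.12 ± 0.31 in AMD3100 blood and -0.08 ± 0.31 in CWHM-823+tGro-b blood. None of these passed in the fit without the slide as a block, and for G-CSF against marrow Klf7 passed under 2 of 24 other settings, both with the block. The 95% interval ran from -0.54 to 0.79 for AMD3100 and from -0.75 to 0.58 for CWHM-823+tGro-b. The Klf7 probe lies at chr1:64082265-64082324 of mm9, on the minus strand.

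**Figure D1:**
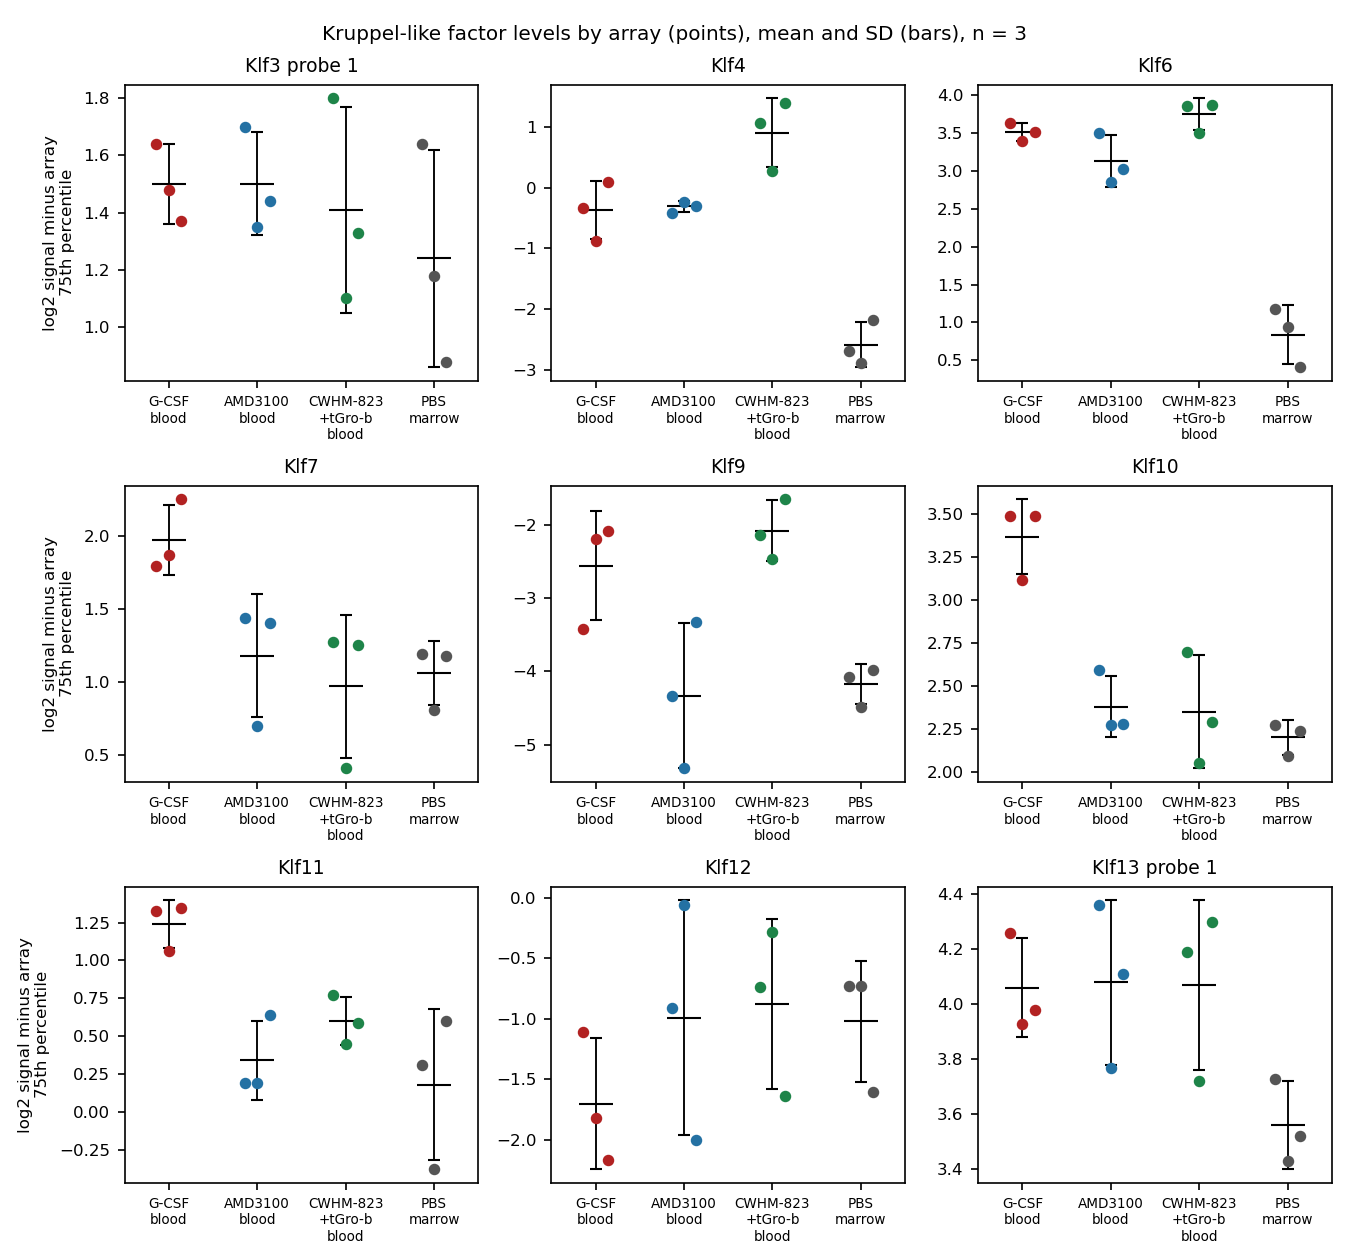
Levels of the 9 Kruppel-like factors on the 12 arrays (log2 signal minus the array's 75th percentile; Klf3 and Klf13 by their probe with the highest mean; each panel has its own scale). Points are arrays in slide order and bars are the mean and SD of 3 arrays; Klf4 and Klf6 lie above marrow on all 9 blood arrays, while Klf7, Klf10 and Klf11 are highest on the 3 G-CSF blood arrays.

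Among the factors that bind Sin3A, Klf10 and Klf11 were first described as early response genes of TGF-beta, and both were highest in G-CSF blood. Klf10 had levels of 3.49, 3.12 and 3.49 in G-CSF blood, 2.59, 2.27 and 2.28 in AMD3100 blood, 2.70, 2.05 and 2.29 in CWHM-823+tGro-b blood, and 2.27, 2.09 and 2.24 in PBS marrow. Every G-CSF array lay above every other array. Klf10 was higher than in marrow by 1.17 ± 0.24 in G-CSF blood (2.24-fold; 1.22, 1.03 and 1.25 within slides 1, 2 and 3). The differences were 0.18 ± 0.24 in AMD3100 blood and 0.15 ± 0.24 in CWHM-823+tGro-b blood, with 95% intervals of -0.34 to 0.70 and -0.37 to 0.67.

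Klf11 had levels of 1.33, 1.06 and 1.35 in G-CSF blood, 0.19, 0.19 and 0.64 in AMD3100 blood, 0.77, 0.45 and 0.59 in CWHM-823+tGro-b blood, and 0.31, -0.38 and 0.60 in PBS marrow. The G-CSF arrays again lay above all others. The difference from marrow was 1.07 ± 0.28 in G-CSF blood (2.10-fold), 0.16 ± 0.28 in AMD3100 blood and 0.43 ± 0.28 in CWHM-823+tGro-b blood. The probes lie at chr15:38224255-38224314 for Klf10 and chr12:25347324-25347383 for Klf11, in mm9.

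Klf9, a factor induced by glucocorticoid and thyroid hormones, differed from the rest in being dim. It was well above background on 3 of 3 G-CSF blood arrays, 1 of 3 AMD3100 blood arrays, 3 of 3 CWHM-823+tGro-b blood arrays and 1 of 3 PBS marrow arrays. Its probe thus passed the filter on dim probes through the groups where it is high. Levels were -3.42, -2.19 and -2.08 in G-CSF blood, -4.34, -5.31 and -3.33 in AMD3100 blood, -2.14, -2.47 and -1.65 in CWHM-823+tGro-b blood, and -4.07, -4.48 and -3.98 in PBS marrow. The G-CSF and CWHM-823+tGro-b arrays lay above all marrow arrays, while the AMD3100 arrays lay on both sides of them. Signal before scaling was 40 to 157 in AMD3100 blood and 105 to 117 in marrow, against 204 to 646 in G-CSF blood. The difference from marrow was 1.61 ± 0.48 in G-CSF blood (0.64, 2.29 and 1.90 within slides 1, 2 and 3), -0.15 ± 0.48 in AMD3100 blood and 2.09 ± 0.48 in CWHM-823+tGro-b blood (1.93, 2.01 and 2.33 within slides). These sizes depend on how background is handled: with normexp background correction they were 0.92 for G-CSF, 0.08 for AMD3100 and 1.03 for CWHM-823+tGro-b, and Klf9 passed in none of its comparisons there.

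The Klf9 window is shown because it was the one among the 8 members with a RefSeq window that held an AP-1 site and a STAT site; it is chr19:23140976-23141225 of GRCm38.p6, plus strand, with the capitals as above.
Klf9: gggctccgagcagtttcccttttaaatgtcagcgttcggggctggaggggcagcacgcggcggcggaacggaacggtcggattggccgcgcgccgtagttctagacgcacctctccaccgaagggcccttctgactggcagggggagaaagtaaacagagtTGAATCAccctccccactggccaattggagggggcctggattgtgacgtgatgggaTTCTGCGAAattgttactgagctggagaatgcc
The AP-1 match begins 89 bases and the STAT match 33 bases before the annotated start. The AP-1 pattern left its middle letter free, and the match here, TGAATCA, has an A there, so it is a loose match. Such sites were present in 6.75% and 7.02% of the 32851 windows. A match describes letters and does not show that a factor binds there. The Klf9 probe itself lies at chr19:23240410-23240469 of mm9.

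Klf13 also binds Sin3A and is known in T cells as a late activator of the chemokine gene Ccl5. Its 3 probes are shown by their first 30 bases because they lie in different places and gave differences of different size. Probe 1 lies at chr7:71032482-71032541, probe 2 was given a position that spans 32932 bases, chr7:71036675-71069606, and probe 3 lies at chr7:71082854-71082913, all in mm9. The scanner output wrote the position of probe 1 ascending and those of probes 2 and 3 descending. The gene is on the minus strand in GRCm38.p6. Every other member probe with a known gene strand was written in the direction of its gene, and probe 1 was written against it. Whether probe 1 reads the transcript's own strand was not tested. The counts for Klf13 and the genes most like it rest on that probe.
Klf13 probe 1: ttttagctttgaaagatacagcttccagaa
Klf13 probe 2: tctcttctccgacaggtcaccttatatatc
Klf13 probe 3: ggctgcgagaaagtttacgggaaatcttcg
No letters are capitalised because no stretch of a probe is singled out.

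Probe 1, which had the highest mean and stands for the gene in counts, read 4.26, 3.93 and 3.98 in G-CSF blood, 4.36, 3.77 and 4.11 in AMD3100 blood, 4.19, 3.72 and 4.30 in CWHM-823+tGro-b blood, and 3.73, 3.43 and 3.52 in PBS marrow. The G-CSF and AMD3100 arrays lay above all marrow arrays, and 1 CWHM-823+tGro-b array lay just below the highest marrow array. Its differences from marrow were 0.50, 0.52 and 0.51 (each ± 0.25) for G-CSF, AMD3100 and CWHM-823+tGro-b. Probe 2 gave 0.82, 0.76 and 1.07 (each ± 0.26), and probe 3 gave 1.50, 1.63 and 1.37 (each ± 0.33). On probes 2 and 3 the blood arrays all lay above the marrow arrays. Probe 3 passed an adjusted p of 0.05 in G-CSF blood and AMD3100 blood and not in CWHM-823+tGro-b blood; probes 2 and 3 passed for all 3 mobilizers with the slide as a block, and probe 1 for none. Without marrow array 3, probe 3 gave 1.49 for G-CSF and 1.62 for AMD3100 and no longer passed for either. Its call was also lost for AMD3100 without any other marrow or AMD3100 array, and for G-CSF without any array but G-CSF array 2 and CWHM-823+tGro-b array 2, and it held in 13 of 22 other settings for AMD3100 and 7 of 22 for G-CSF. The direction was the same for the 3 probes on every slide.

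**Figure D2:**
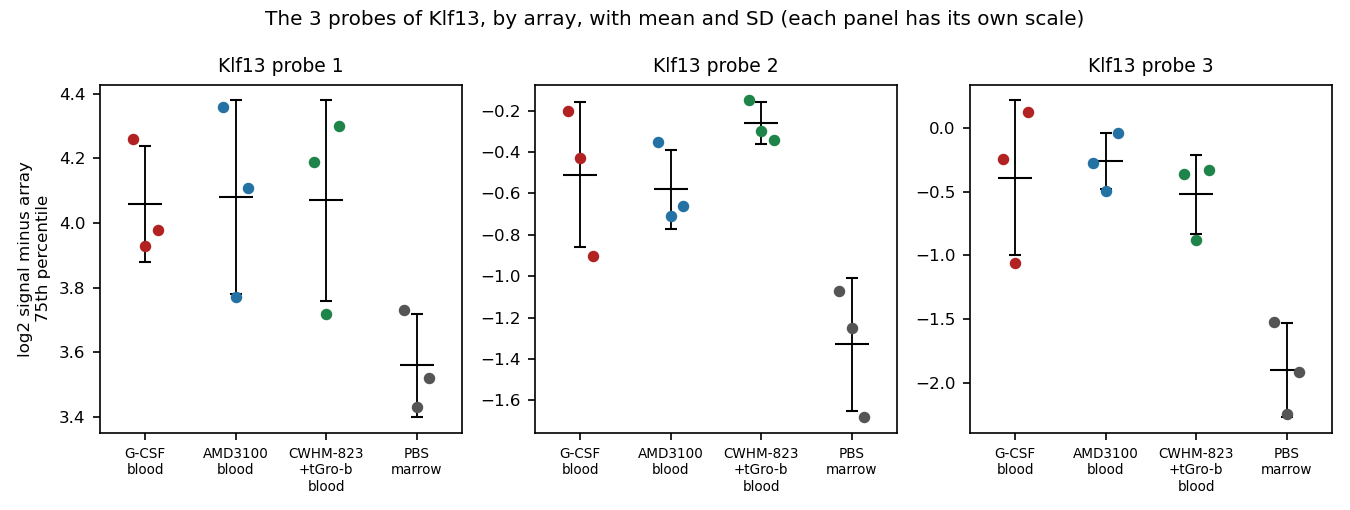
The 3 probes of Klf13 on the 12 arrays (log2 signal minus the array's 75th percentile; each panel has its own scale; points are arrays in slide order, bars mean and SD of 3 arrays). The gap between the blood groups and marrow is 0.50 to 0.52 on probe 1 and 1.37 to 1.63 on probe 3.

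Klf3 and Klf12, which bind CtBP, gave no difference from marrow that passed. Klf3 is known for erythroid and B cell maturation, and in erythroid cells it represses genes that Klf1 activates. Its probe 1, at chr5:65221309-65221368 of mm9, averaged 1.50 ± 0.14 in G-CSF blood, 1.50 ± 0.18 in AMD3100 blood, 1.41 ± 0.36 in CWHM-823+tGro-b blood and 1.24 ± 0.38 in PBS marrow (SD, n = 3 each). All 4 groups overlapped, and the 95% intervals of the differences from marrow ran from -0.32 to 0.84 for G-CSF, the same for AMD3100, and from -0.41 to 0.76 for CWHM-823+tGro-b. Probe 2, at chr5:65223991-65224050, averaged -0.69 ± 0.23 in G-CSF blood, -1.59 ± 0.37 in AMD3100 blood, -1.19 ± 0.31 in CWHM-823+tGro-b blood and -1.17 ± 0.81 in PBS marrow. The probes of Klf3 went opposite ways in AMD3100 blood, at 0.26 ± 0.27 and -0.41 ± 0.37, both within the spread of the arrays.

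Klf12, a repressor first described for the gene of the transcription factor AP-2 alpha, was the most variable member. It read -1.11, -1.82 and -2.16 in G-CSF blood, -0.91, -0.06 and -2.00 in AMD3100 blood, -0.74, -0.28 and -1.64 in CWHM-823+tGro-b blood, and -0.73, -0.73 and -1.60 in PBS marrow. Its SD pooled over groups was 0.70, against 0.22 to 0.66 for the probes that stand for the other members. Array 3 was the lowest in every group. Klf12 was the one member whose G-CSF arrays averaged below marrow, by -0.68 ± 0.51 (95% interval -1.78 to 0.42), and the groups overlapped. Its probe lies at chr14:100270699-100270758 of mm9.

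**Figure D3:**
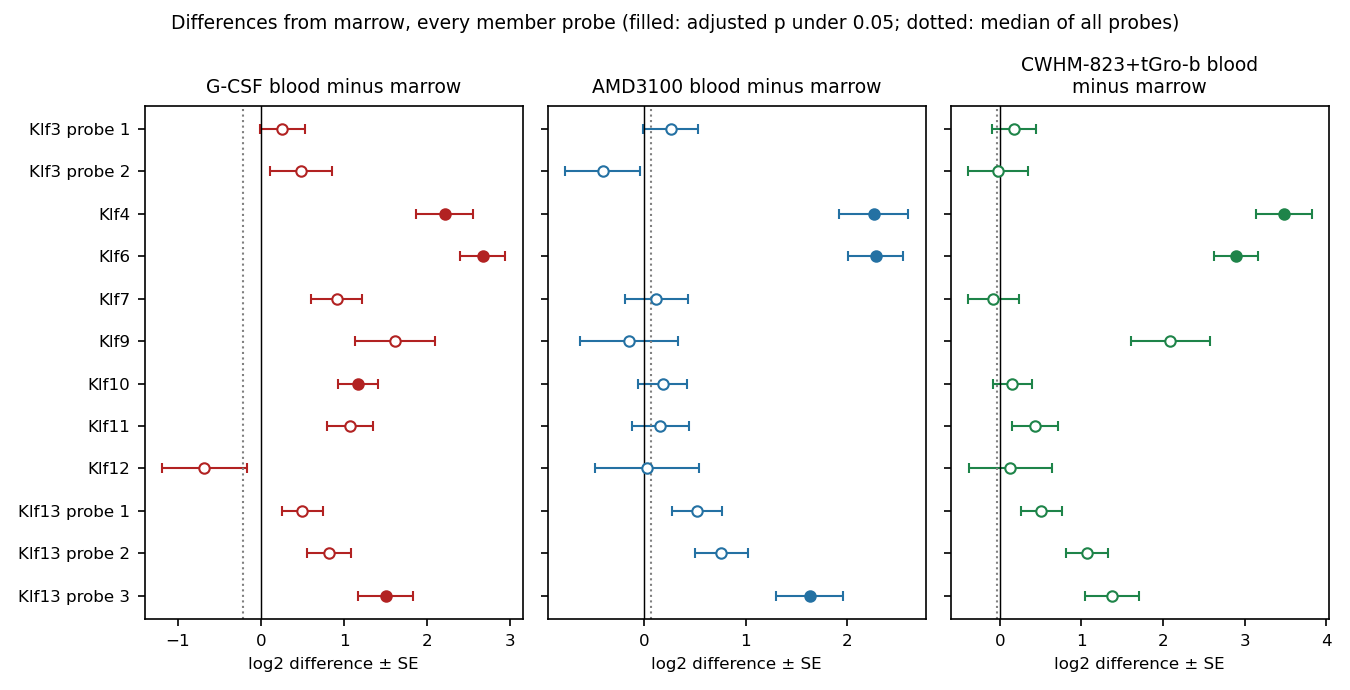
Log2 difference from PBS marrow for all 12 probes of the 9 genes, with the standard error (n = 3 arrays per group); filled points passed an adjusted p of 0.05 in the model over all 29497 kept probes, and the dotted line is the median of all kept probes. Klf4 and Klf6 are filled in all 3 panels, Klf10 for G-CSF only, and Klf13 probe 3 for G-CSF and AMD3100.

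Counts over the genes were taken from limma's moderated test, run on all 29497 kept probes with Benjamini-Hochberg adjustment. A gene counted through its probe with the highest mean. In G-CSF blood against marrow 3 of the 9 genes passed as higher (Klf4, Klf6 and Klf10) and 0 as lower, where 1.28% of all probes passed as higher and 0.529% as lower (1.81% in all; 378 against 156 probes, or 392 against 77 with quantile normalization and 336 against 263 with the percentile taken over probes above background on all arrays). With the slide as a block 6 were higher, adding Klf7, Klf9 (above background on 1 of 3 marrow arrays) and Klf11, and 0 lower, where 8.36% of all probes passed as higher and 10.0% as lower (18.4% in all). In AMD3100 blood against marrow 2 were higher (Klf4 and Klf6) and 0 lower, where 0.559% of all probes passed as higher and 1.16% as lower (1.72% in all). With the block the counts were also 2 and 0, where 5.45% passed as higher and 8.13% as lower (13.6% in all). In CWHM-823+tGro-b blood against marrow 2 were higher (Klf4 and Klf6) and 0 lower, where 0.363% passed as higher and 0.0271% as lower (0.390% in all). With the block Klf9, with the same limit on the marrow arrays, was added, making 3 higher and 0 lower, where 0.783% passed as higher and 0.292% as lower (1.07% in all). At an unadjusted p under 0.05, 6 were higher and 0 lower for G-CSF, 2 and 0 for AMD3100, and 3 and 0 for CWHM-823+tGro-b, where 19.6, 19.0 and 5.93% of all probes had such a p in either direction. Since the genes were listed with these contrasts known, nothing is read from the counts.

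Separation of the groups was also counted array by array. In G-CSF blood 7 of the 9 genes had every array above every marrow array, where 12.2% of all probes did; in AMD3100 blood it was 4, where 13.8% did, and in CWHM-823+tGro-b blood 3, where 4.66% did. The AMD3100 count includes Klf10, whose lowest AMD3100 array and highest marrow array both read 2.27 after rounding. The median difference of the 9 genes from marrow was 1.07, 0.18 and 0.43 for G-CSF, AMD3100 and CWHM-823+tGro-b, beside -0.21, 0.07 and -0.04 for all kept probes. Set against that shift of all probes, Klf10 stood 1.38 and Klf12 -0.47 from the typical probe in G-CSF blood. Leaving out each array in turn kept Klf4 and Klf6 past the threshold for all 3 mobilizers. Klf10 in G-CSF blood was lost without G-CSF array 1 or 3 or without any 1 of the marrow arrays, and also in the authors' deposited table and in a fit of the 2 groups alone. Without marrow array 3 its difference was 1.19.

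The mobilizers were also compared with one another, and as against marrow nothing is read from the counts of the 9 genes. G-CSF blood and AMD3100 blood differed widely over the whole array, with 30.1% of all probes passing. Of the 9 genes 3 were higher in G-CSF blood and 0 lower: Klf9 by 1.76 ± 0.48, Klf10 by 0.98 ± 0.24 and Klf11 by 0.91 ± 0.28. Klf9 was above background on 1 of 3 AMD3100 arrays, its groups overlapped, and with normexp its difference was 0.84 and did not pass. As higher 13.2% and as lower 16.9% of all probes passed. With the slide as a block 4 were higher, adding Klf7 (0.79 ± 0.19 in that fit), and 0 lower. Of all probes 24.4% then passed as higher and 36.1% as lower (60.5% in all). Quantile normalization turned the balance over all probes: 4452 passed as higher and 2964 as lower, against 3902 and 4971 without it; with the percentile taken over probes above background on all arrays it was 3111 and 6346. The median of all probes was -0.24 in this comparison, beside 0.38 for the 9 genes. Arrays of these groups did not overlap for 3 genes, Klf7, Klf10 and Klf11, all higher in G-CSF blood. The same separation in that direction was seen for 21.0% of all probes. The count fell to 1 without AMD3100 array 1 (Klf10) or without G-CSF array 1 (Klf9), and to 0 without AMD3100 array 2 or without G-CSF array 3. The second probe of Klf3 was 0.89 ± 0.37 higher in G-CSF blood and did not overlap; it passed under 5 of 22 other settings, among them the block, quantile normalization and the authors' deposited table.

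Between G-CSF blood and CWHM-823+tGro-b blood 0 of the 9 genes passed in limma's test, where 0.658% of all probes did (0.400% as higher, 0.258% as lower), and 4 had an unadjusted p under 0.05, as did 10.2% of all probes. With the slide as a block 3 passed, where 2.06% of all probes did (1.10% as higher, 0.963% as lower). Klf7 was 1.00 ± 0.19 and Klf10 1.02 ± 0.15 higher in G-CSF blood, and Klf4 was lower there, at -1.27 ± 0.23. These standard errors are those of the fit with the block. Within slides 1, 2 and 3 the Klf4 difference was -1.39, -1.14 and -1.29. Arrays did not overlap for 3 genes higher in G-CSF blood and for 1 gene lower there. Of all probes 6.95% were separated as higher and 6.61% as lower.

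Between CWHM-823+tGro-b blood and AMD3100 blood 0 of the 9 genes passed, where 0.207% of all probes did (0.159% as higher, 0.0475% as lower), and 3 had an unadjusted p under 0.05, as did 20.1% of all probes. With the slide as a block 2 passed, both higher in CWHM-823+tGro-b blood, where 16.2% of all probes passed (8.63% as higher, 7.55% as lower). With the standard errors of that fit, they were Klf4 at 1.22 ± 0.23 (1.46, 0.50 and 1.68 within slides) and Klf9 at 2.24 ± 0.39 (2.20, 2.84 and 1.69 within slides). For Klf9 the difference was 0.95 with normexp, and 1 of 3 AMD3100 arrays was above background. Klf4 and Klf9 were also the genes whose arrays did not overlap, both higher in CWHM-823+tGro-b blood. The same separation in that direction was seen for 11.9% of all probes. Without AMD3100 array 3 the count without the block was 1 (Klf9). Klf4 in G-CSF blood and AMD3100 blood could not be separated: the difference was -0.06, with a 95% interval of -0.80 to 0.68.

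**Figure D4:**
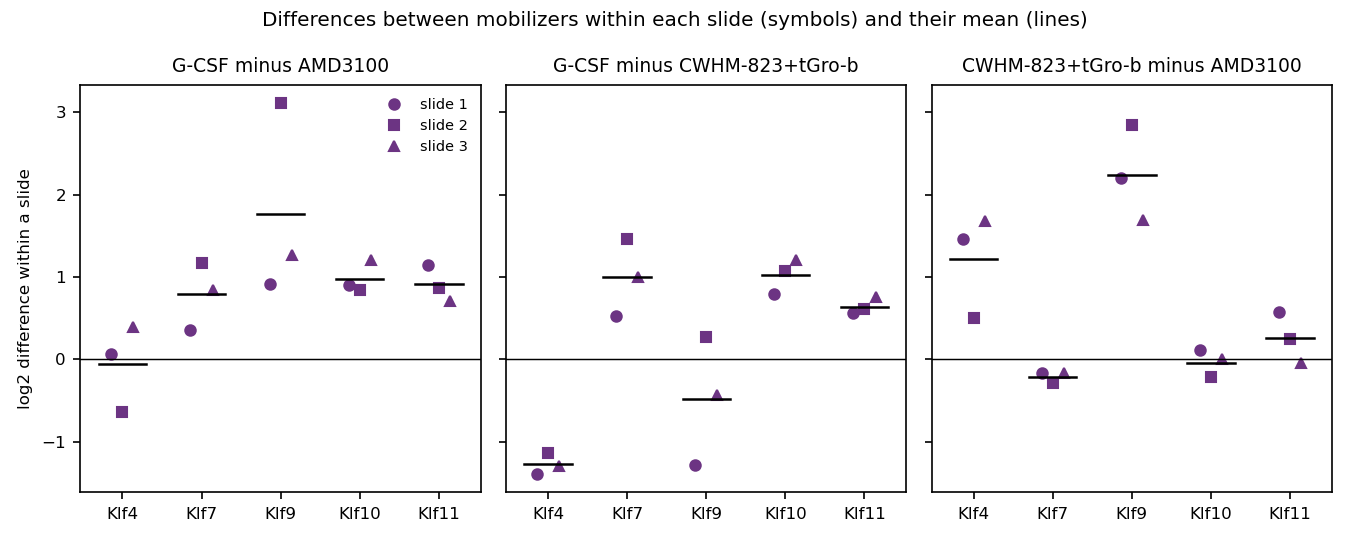
Differences between mobilizers within each of the 3 slides (log2; symbols are slides, lines the mean over slides) for the 5 genes that passed in any pair of mobilizers with or without the slide as a block. Klf4 lies below 0 on every slide for G-CSF minus CWHM-823+tGro-b, and Klf10 and Klf11 lie above 0 on every slide for G-CSF minus AMD3100.

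The genes most like each member were sought among 13626 genes that were above background on every array, by Pearson's r over the 12 arrays. These points share slides and groups, and for Klf4 and Klf6 the marrow arrays lie apart from the blood arrays, so r includes that gap. Closest to Klf4 were Fosb (r = 0.977), a subunit of AP-1, Marcksl1 (0.965) and Rasgef1b (0.963). Closest to Klf6 were Trib1 (0.985), a pseudokinase, Nr4a1 (0.979), an orphan nuclear receptor, and Pde4b (0.971), a phosphodiesterase of cyclic AMP. Klf10 was closest to Eif2b4 (0.963), Cd48 (0.957) and Ptms (0.956), and Klf11 to Gpx1 (0.959), Palm (0.956) and Idi1 (0.954). The other 5 members had a highest r between 0.904 and 0.931: Klf3 with Kdm5b (0.931), Klf7 with Ggta1 (0.930), Klf13 with Ywhaz (0.928), Klf12 with Adcy9 (0.917) and Klf9 with 5430405H02Rik (0.904).

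The gene lists from here on were also chosen with earlier results of these data known, and passing genes are named by their smallest p. Their counts and p-values are therefore a description, and nothing is read from them, also where the share of all probes stands beside. Among the 6 measured of 8 other Kruppel-like factors, Klf2, a factor of lymphocyte trafficking, was the gene that passed with all 3 mobilizers. It averaged 3.15 ± 0.48 in G-CSF blood, 2.17 ± 0.61 in AMD3100 blood, 2.72 ± 0.80 in CWHM-823+tGro-b blood and -1.78 ± 0.27 in PBS marrow (SD, n = 3 each). Klf5 stayed between -2.45 and -2.06 on average in the 4 groups, and Klf8, which also binds CtBP, was not well above background on any AMD3100 array. G-CSF blood was at least 1.62-fold higher for Klf8 than AMD3100 blood (limma adjusted p = 0.00565), with each dim value raised to the dimmest signal that its array still had above background. With normexp background correction this call was lost. Klf1, the erythroid factor, was lower in G-CSF blood (-2.24 ± 0.49, limma adjusted p = 0.0431) and lost its call without any 1 of the marrow arrays, without G-CSF array 1 or 3, without AMD3100 array 2 and without CWHM-823+tGro-b array 2, and also with quantile normalization, normexp, the authors' deposited table and no filter, 11 of 24 settings in all. The summed signal of 4 erythroid genes, which includes Klf1 itself, was also lower there. It was 0.661 to 0.768 times the signal at the 75th percentile on G-CSF blood arrays, against 1.96 to 4.28 on marrow arrays. On AMD3100 blood arrays it was 0.952 to 1.85, and on CWHM-823+tGro-b blood arrays 1.67 to 3.91. The part of these genes in the Klf1 result was not tested. Of 7 measured Sp factors, the nearest relatives of the family, 0 passed against marrow in limma's test with any mobilizer; at an unadjusted p under 0.05 there were 0 for G-CSF, 1 higher and 1 lower for AMD3100, and 0 for CWHM-823+tGro-b. With the slide as a block 0 were higher and 2 lower for G-CSF, 1 and 1 for AMD3100, and 0 and 0 for CWHM-823+tGro-b. Of all probes 8.36% were then higher and 10.0% lower for G-CSF, and 5.45 and 8.13% for AMD3100.

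Of 19 measured genes described as targets of Kruppel-like factors, 5 passed as higher and 0 as lower in G-CSF blood against marrow, 2 and 0 in AMD3100 blood, and 1 and 0 in CWHM-823+tGro-b blood. As higher, 1.28, 0.559 and 0.363% of all probes passed, in that order. With the slide as a block the counts were 6 and 2, 3 and 0, and 3 and 0. The shares of all probes were then 8.36% higher and 10.0% lower, 5.45 and 8.13%, and 0.783 and 0.292%. Medians were -0.12, 0.17 and -0.01 for G-CSF, AMD3100 and CWHM-823+tGro-b, beside the medians of all probes given above. Atf3, a stress-induced factor, was higher with every mobilizer, by 3.65 ± 0.41 in G-CSF blood (limma adjusted p = 0.000661), 3.12 ± 0.41 in AMD3100 blood (limma adjusted p = 0.00454) and 4.94 ± 0.41 in CWHM-823+tGro-b blood (limma adjusted p = 9.72e-05). Lgals3, or galectin-3, was higher in G-CSF blood by 2.85 ± 0.48 (limma adjusted p = 0.0107; the call was lost without G-CSF array 3). Cdkn1a, the cell cycle inhibitor p21 that Klf4 and Klf6 are known to activate, was higher there by 1.73 ± 0.31 (limma adjusted p = 0.0141; lost without G-CSF array 1 or 3 or marrow array 1 or 2, and with the mean of its probes).

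Partners and inputs of the family were counted in the same way. Of 15 measured cofactors and ubiquitin ligases (CtBP, Sin3, histone deacetylases and others) 0 passed in limma's test with any mobilizer, and with the block 0 passed for G-CSF, 4 were lower for AMD3100 (8.13% of all probes were) and 0 passed for CWHM-823+tGro-b. At an unadjusted p under 0.05 the same list had 1 gene higher for G-CSF, 4 lower for AMD3100 and 0 for CWHM-823+tGro-b. Of 19 measured genes of TGF-beta signalling, which induces Klf10 and Klf11, 0 passed against marrow without the block; with it 3 were higher for G-CSF (8.36% of all probes were), 2 lower for AMD3100 and 0 passed for CWHM-823+tGro-b. At an unadjusted p under 0.05 there were 4 higher and 0 lower, 1 and 3, and 3 and 0. Medians of the TGF-beta genes were 0.18, -0.08 and 0.07. Among the inputs counted next, the block gave 1 higher and 1 lower for G-CSF, 1 and 4 for AMD3100, and 1 and 0 for CWHM-823+tGro-b. The shares of all probes were then 8.36% higher and 10.0% lower, 5.45 and 8.13%, and 0.783 and 0.292%. The counts that follow are without the block. Of 17 genes that feed ERK5, MEF2, SRF and CREB signals into Klf promoters 0 passed for G-CSF and AMD3100 (1 higher and 0 lower for G-CSF, 1 and 4 for AMD3100 at an unadjusted p under 0.05), and 1 for CWHM-823+tGro-b, Crem (2.02 ± 0.35, limma adjusted p = 0.0329; lost under 11 of 24 other settings).

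Of 15 glucocorticoid receptor genes and targets (Klf9 is itself known as such a target), 2 were higher in G-CSF blood, 1 in AMD3100 blood and 2 in CWHM-823+tGro-b blood against marrow, and 0 were lower. As higher, 1.28, 0.559 and 0.363% of all probes passed, in that order. With the block it was 5 higher and 2 lower, 2 and 2, and 3 and 1. The shares of all probes were then 8.36% higher and 10.0% lower, 5.45 and 8.13%, and 0.783 and 0.292%. Sgk1, a hormone-induced kinase, was higher in all: 2.78 ± 0.40 for G-CSF, 2.34 ± 0.40 for AMD3100 and 4.21 ± 0.40 for CWHM-823+tGro-b (limma adjusted p = 0.00356, 0.0163 and 0.000293), with 2 of 3 marrow arrays above background. The AMD3100 call was lost without AMD3100 array 1 or marrow array 2. Cebpd, which is not well above background on any marrow array, was at least 13.6-fold higher in G-CSF blood (limma adjusted p = 0.000465).

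Between the mobilizers these lists differed chiefly in G-CSF blood against AMD3100 blood, where 30.1% of all probes passed. Higher in G-CSF blood were 5 of 15 cofactors and ligases, 6 of 19 TGF-beta genes, 4 of 17 ERK5, MEF2, SRF and CREB inputs and 4 of 19 described targets, and 1 of the targets, Ccl5, was lower (-1.05 ± 0.26, limma adjusted p = 0.0182). Stub1, a ubiquitin ligase, was 1.24 ± 0.26 higher (limma adjusted p = 0.0104) and Smad5, a transducer of BMP signals, 1.24 ± 0.28 (limma adjusted p = 0.0135; lost without G-CSF array 1 or 3). As higher, 13.2% of all probes passed in this comparison. With the slide as a block 9 cofactors and ligases were higher and 2 lower, and 9 and 0 TGF-beta genes. Of the inputs 6 were then higher and 3 lower, and of the targets 4 and 5. With the block 24.4% of all probes were higher and 36.1% lower. Among B cell markers 3 of 5 measured genes were lower in G-CSF blood and 0 higher. Their summed signal was 4.17 to 4.59 times the signal at the 75th percentile in G-CSF blood and 6.04 to 6.94 times in AMD3100 blood. Of 5 T and NK cell genes 1 was lower and 0 higher. Of the 10 LSK marker genes 5 were higher in G-CSF blood and 1 lower, with a median difference of 0.54. The part of these markers in the differences of Klf9, Klf10 and Klf11 was not tested.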

How the data were processed

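The deposited scanner files hold the red (Cy5) processed signal of each spot, an intensity. Per the file headers and the submitters' processing notes it comes from Agilent Feature Extraction 11.5.1.1. The header settings show spatial and multiplicative detrending and surrogates for very low spots, so values near background are partly modelled. Per the labels, RNA was amplified (WTA2) and then labelled (Kreatech ULS). The authors also deposited a normalized intensity for 30354 probes, used as an alternative. Its array medians were 938 to 945, on the log2 scale r with the scanner signal was 0.998 to 1 per array, and neither scaling nor choice of probes is stated.

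Groups came from each sample's own label, since the shared treatment text names treatments that no sample has. After control and outlier spots were removed from the arrays (43020 spots before outliers), repeated spots were averaged to 39429 probes, and 0 spots were saturated. Levels are log2 signal minus the array's 75th percentile. A probe was kept if every array of some group flagged it well above background (29643), less 146 probes with an array of outlier spots alone, leaving 29497, all 12 probes of the 9 genes included. limma 3.58.1 (R 4.3.3; version 1.17.8 of data.table) estimated a mean for each group from the 12 arrays together, with moderated 2-sided tests (8 residual and 3.87 prior degrees of freedom) and Benjamini-Hochberg adjustment over the kept probes. The fit was tested on simulated data.

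The labels do not tie arrays to separate mice, so p-values reflect the spread of these samples, which may be technical. The 3 arrays per group limit the precision. Replicate number and slide coincide. With group means removed, the 18 pairs of arrays with the same number had r of 0.242 to 0.598. The 36 other pairs had a median of -0.235, which removing the means in part brings about. Arrays of the same number were thus alike, but paired samples and an effect of the slide cannot be told apart. The fit with that block is given where it changes a count. Alternatives covered background, scaling, filter, prior, probes per gene, block and arrays left out.

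The 9 genes and the gene lists were chosen with earlier results of these data known. Named genes were the 9, the 3 most alike for each, and up to 4 passing genes per list with the smallest p. A gene that this rule names is not reported here. Probe positions are the scanner files' own (mm9); no annotation of that assembly was used, so exons are not stated. Promoter windows matched 8 of the 9 genes by symbol.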

Additional observations from a re-analysis of the deposited data

How the results depend on the processing

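Klf4 and Klf6 stayed higher than marrow and past the threshold with all 3 mobilizers under all 24 other settings. Of 1686 values of the 9 genes under those settings, 0 turned the sign of a passing difference and 12 moved by more than the spread between arrays. Of 946 values of listed genes, 161 lost their call and 1 turned its sign: Mkl2 in G-CSF blood against AMD3100 blood, at -0.10 with its probes averaged. Klf9 lay near background on most AMD3100 blood and marrow arrays, which limits its differences. The causes of these changes were not tested.

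With the replicate block 6 of the 9 genes passed for G-CSF against marrow, 3 for G-CSF against CWHM-823+tGro-b and 2 for CWHM-823+tGro-b against AMD3100. With quantile normalization added these were 6, 2 and 3. With the intensity trend 1 (Klf10) passed for G-CSF against CWHM-823+tGro-b, and 1 (Klf10) for G-CSF against AMD3100 when those groups were fitted alone. Leaving out arrays gave 2 to 3 genes for G-CSF and 2 for each of AMD3100 and CWHM-823+tGro-b against marrow, 0 to 4 for G-CSF against AMD3100, 0 for G-CSF against CWHM-823+tGro-b and 0 to 1 for CWHM-823+tGro-b against AMD3100.

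The share of all probes that passed was 1.81% for G-CSF, 1.72% for AMD3100 and 0.390% for CWHM-823+tGro-b against marrow, 30.1% for G-CSF against AMD3100, 0.658% for G-CSF against CWHM-823+tGro-b and 0.207% for CWHM-823+tGro-b against AMD3100. In that order the replicate block gave 18.4, 13.6, 1.07, 60.5, 2.06 and 16.2%, and with quantile normalization 10.7, 18.4, 1.07, 51.4, 1.51 and 18.8%. Leaving out arrays gave 0.82 to 2.92, 0.363 to 1.75, 0.224 to 0.366, 6.26 to 40.7, 0.342 to 0.77 and 0.0339 to 0.431%. Fits of the compared groups alone gave 1.05% for G-CSF and 0.614% for AMD3100 against marrow, 16.1% for G-CSF against AMD3100, 0.264% for G-CSF against CWHM-823+tGro-b and 0.0339% for CWHM-823+tGro-b against AMD3100. For AMD3100 against marrow it was 3.34% with quantile normalization, 0.81% with normexp and 0.625% without the filter. The authors' table gave 1.23% for G-CSF against marrow, 0.401% for G-CSF against CWHM-823+tGro-b and 0.0244% for CWHM-823+tGro-b against AMD3100. For that last comparison it was 0.512% with quantile normalization, 0.0339% with normexp, 0.0464% for probes above background on the 12 arrays, 0.105% with the intensity trend, 0.147% with 1 probe per gene and 0.16% with a gene's probes averaged.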
